A study of Mus musculus with 10 samples.

Results

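The 37 genes of the mouse mitochondrial genome were followed in gastrocnemius muscle of desmin knock-out and wild-type mice. They were taken as every row of the deposited expression table whose gene symbol starts with mt-, which gave 37 of 54232 rows, and they comprise 13 protein-coding, 2 ribosomal RNA (rRNA) and 22 transfer RNA (tRNA) genes. All 37 lie on the mitochondrial chromosome, here written M, in the GRCm38 build, and none contains an intron. The choice used only the symbol and no measured value.

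Mitochondrial DNA is a small circular genome that is present in many copies per cell and is inherited apart from the nuclear chromosomes. Both of its strands, called heavy and light, are transcribed as long precursors, and the tRNAs that lie between most of the other genes are cut out of these precursors, which frees the mRNAs and rRNAs. The mRNAs encode core subunits of the respiratory complexes I, III and IV and of the ATP synthase, whereas all other subunits and all enzymes of mitochondrial transcription and translation come from nuclear genes. Skeletal muscle fibers hold many mitochondria between the myofibrils and under the sarcolemma, where the intermediate filament protein desmin links the Z-discs to neighbouring structures.

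RNA of gastrocnemius muscle, taken from mice that were 3 months old, was sequenced from 5 desmin knock-out mice (Des -/-) and 5 wild-type littermates (Des wt/wt) of the strain B6J.129Sv-Destm1Cba/Cscl. The knock-out is present from the germ line in all tissues, and neither group carried a further allele or received an agent. The sex of the mice was not given in the sources used here, and the study also names the adjoining plantaris muscle as part of the tissue. The methods speak of RNA that was pooled within a genotype, while the table holds 1 column per mouse, and whether each column is a single animal rests on the labels.

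The values are regularized log2 read counts (rlog), a DESeq2 scale on which genes with few reads are drawn towards their mean over all mice, so that differences of weakly measured genes are understated. Read totals per mouse were not part of the table, and the depth behind each value is unknown. Des itself had rlog values of 11.76 to 11.89 in knock-out and of 16.10 to 17.74 in wild-type mice, without overlap. Wild-type mouse 3 stood apart. Over all genes its values correlated with those of the rest of its group at 0.982 on average, where the 4 remaining wild-type mice had 0.989 to 0.991, and its summed linear signal was 1.48 times the median of all mice against 0.949 to 1.06 in the other 9. Results that rest on this mouse are therefore also given without it. Markers of skeletal muscle fibers were high in all mice, with a log2 sum over 8 genes of 22.03 to 22.23 in knock-out and 22.25 to 23.22 in wild-type mice.

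Along the mitochondrial genome, the level of the transcripts fell into separate ranges that did not follow the genotype. Levels are compared between genes here as rlog minus the log2 of the gene length in kb. On this scale 7 of the 13 protein-coding genes lay between 14.00 and 20.41, while the other 6 lay between 1.03 and 5.06. The 7 high genes were mt-Nd1, mt-Nd2, mt-Nd4, mt-Nd5 and mt-Nd6, subunits of complex I, mt-Cytb, the cytochrome b of complex III, and mt-Co1, the catalytic subunit of complex IV. The 6 low genes were mt-Co2 and mt-Co3, further core subunits of complex IV, mt-Atp8 and mt-Atp6, subunits of the membrane part of the ATP synthase, and mt-Nd3 and mt-Nd4l of complex I. The low genes followed each other without a high gene between them, from mt-Co2 at M:7013-7696 to mt-Nd4l at M:9877-10173, and they were flanked by mt-Co1 and mt-Nd4, which both had high levels.

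**Figure D1:**
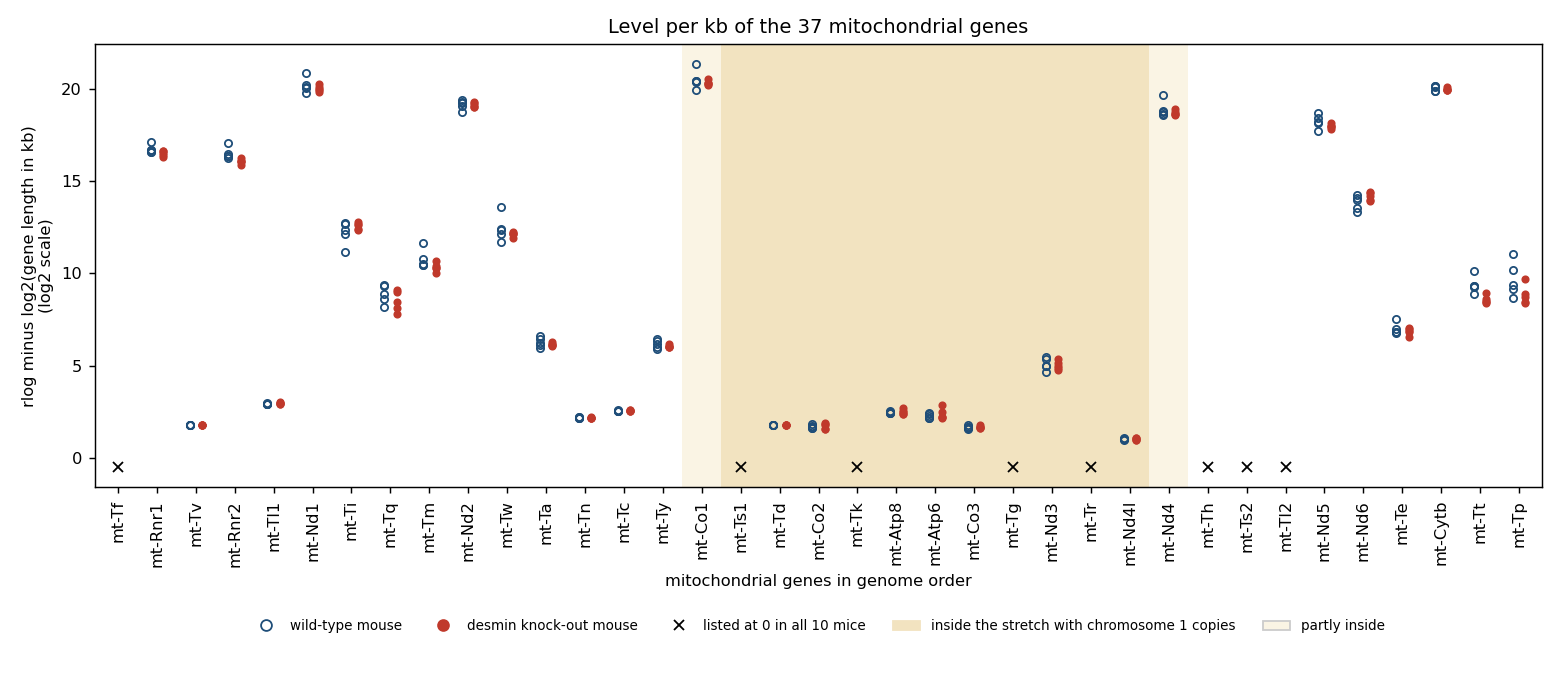
Level of each mitochondrial gene in each mouse, as rlog minus log2 of the gene length in kb, in the order of the genes on the genome; open points are 5 wild-type and filled points 5 desmin knock-out mice, and crosses mark genes listed at 0 in all 10 mice. As means over all 10 mice, the 6 protein-coding genes in the dark band have levels of 1.03 to 5.06, and the 7 others of 14.00 to 20.41. Single mice and the means of 1 genotype can lie outside these bounds, but the 2 ranges are separate in both genotypes.

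Among the high protein-coding genes, mt-Co1 had the highest level per kb, and it exceeded mt-Nd1 in 10 of 10 mice by a mean of 1.24-fold. Between mt-Nd1 and mt-Cytb the order changed from mouse to mouse, with mt-Nd1 higher in 5 of 10, and their mean difference of 0.10 on the log2 scale was smaller than its SD of 0.32 over mice. The level of mt-Cytb was 1.82-fold that of mt-Nd2 and higher in all 10 mice. Further down the order, mt-Nd2 exceeded mt-Nd4 in 9 of 10 mice and mt-Nd4 exceeded mt-Nd5 in 10 of 10. The rRNA genes followed, mt-Rnr1 for the small and mt-Rnr2 for the large subunit of the mitochondrial ribosome, and mt-Nd5 was 2.82-fold above mt-Rnr1. The libraries were made with a kit for mRNA, so the rRNA and tRNA values show only what such a library retains of them. Lowest among these genes was mt-Nd6, the only mRNA of the light strand, which lay 4.85-fold below mt-Rnr2.

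The 6 low genes were those whose sequence, or whose place between such genes, is repeated in the nuclear genome. A search of the mitochondrial gene sequences against all nuclear transcripts of GENCODE M21 found 7 annotated pseudogenes in a row on the minus strand of chromosome 1, at 1:24611535-24616197. They match mt-Co1, mt-Co2, mt-Atp6, mt-Co3, mt-Nd3, mt-Nd4l and mt-Nd4 in the order of the mitochondrial genes, and they correspond to M:6390-11042, a stretch of 4653 bases. Over the whole stretch the sum of the mitochondrial and the chromosome 1 position changed by only 1 base, as a continuous copy would give. The copies of mt-Co2 (Gm28661), mt-Atp6 (Gm10925), mt-Co3 (Gm28437) and mt-Nd4l (Gm10222) were identical to the mitochondrial genes over their aligned 681, 678, 783 and 294 bases. Gm28438 differed from mt-Nd3 at 1 of 345 bases. Only the last 483 bases of mt-Co1 are represented on chromosome 1, by Gm29216 with 1 mismatch, and only the first 876 of the 1378 bases of mt-Nd4, by Gm28439 with none.

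Short stretches of these genes show how little separates the genomes. The first window lies in mt-Co2 and is compared with its chromosome 1 copy and with Gm13341, a second copy on chromosome 2. Capitals mark the 3 positions at which the chromosome 2 copy differs from mt-Co2 in this window. The sequences are those of GENCODE M21 transcripts on GRCm38, written 5′ to 3′ along the gene.
mt-Co2, M:7214-7303, plus strand: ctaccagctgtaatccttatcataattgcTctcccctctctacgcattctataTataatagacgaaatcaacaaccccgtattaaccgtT
Gm28661, 1:24615275-24615364, minus strand: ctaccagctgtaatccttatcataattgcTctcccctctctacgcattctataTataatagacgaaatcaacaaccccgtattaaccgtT
Gm13341, 2:22587672-22587761, minus strand: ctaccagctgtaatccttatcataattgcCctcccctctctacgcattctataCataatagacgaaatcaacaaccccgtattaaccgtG
The second window is the start of mt-Nd3 and holds, in capitals, the only base that separates it from its chromosome 1 copy.
mt-Nd3, M:9459-9538, plus strand: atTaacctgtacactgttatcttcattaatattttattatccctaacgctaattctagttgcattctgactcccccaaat
Gm28438, 1:24613040-24613119, minus strand: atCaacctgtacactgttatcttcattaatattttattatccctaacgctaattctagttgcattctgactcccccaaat

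The level of a gene and the share of its sequence found in nuclear transcripts are set side by side below. Of all 100-base windows, 99.5% of those in mt-Co2, 99.5% in mt-Atp6, 99.9% in mt-Co3, 98.5% in mt-Nd4l and 97.6% in mt-Nd3 occurred letter for letter in an annotated nuclear transcript. The share was 60.8% in mt-Nd4, 30.8% in mt-Co1 and 3.19% in mt-Nd2, all of which had high levels, and it was 0 in mt-Nd1, mt-Nd5, mt-Nd6, mt-Cytb and both rRNA genes. The exception was mt-Atp8, with a share of 0 and a level of 2.47. No annotated transcript covers its copy, but the gene lies between mt-Co2 and mt-Atp6, inside the stretch that is repeated on chromosome 1, and it overlaps the start of mt-Atp6. Without a genome sequence, that part of chromosome 1 was not read here.

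**Figure D2:**
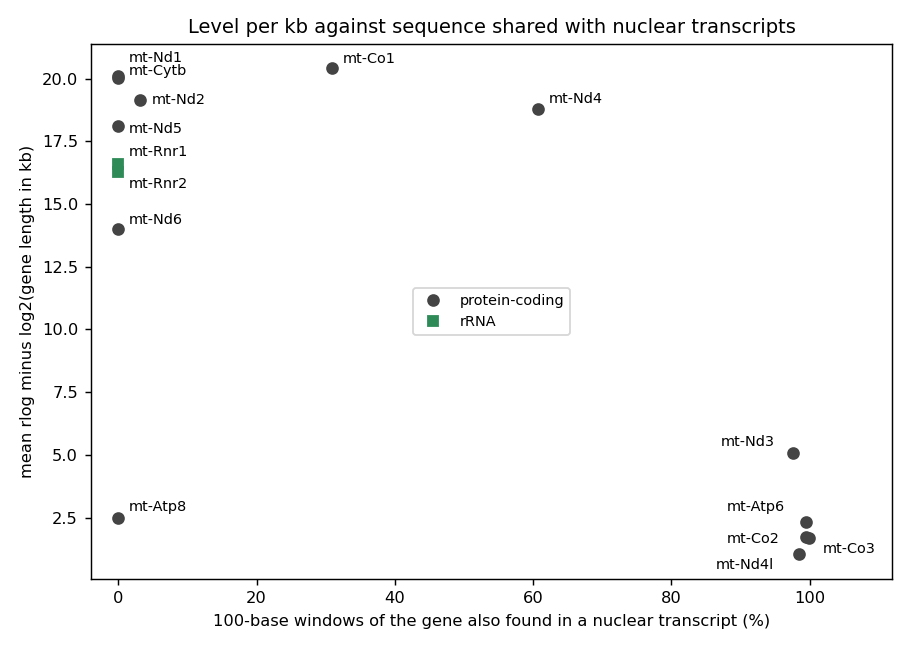
Mean level of the 13 protein-coding and 2 rRNA genes (rlog minus log2 of the length in kb, mean of 10 mice) against the share of their 100-base windows that also occur in an annotated nuclear transcript, in percent. Genes with shares of 97.6% or more have levels of at most 5.06, genes with shares of 60.8% or less have levels of at least 14.00, and mt-Atp8 with 0% and a level of 2.47 stands apart.

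The nuclear copies themselves had low values. Across all mice the 7 pseudogenes on chromosome 1 had rlog values between 0.56 for Gm10222 and 5.62 for Gm29216, the partial copy of mt-Co1. Higher values were listed for more diverged copies of mt-Co1 and mt-Co2 on chromosome 2. They were 8.07 to 9.52 for Gm13340 (97.6% identical to mt-Co1 over 1545 bases) and 6.52 to 7.53 for Gm13341 (95.9% identical to mt-Co2). Other diverged copies had low values. The partial copy of mt-Nd2 on chromosome 2 (Gm13339, 96.7% identical) had 3.33 to 4.35. The partial copy of mt-Nd5 on chromosome 13 (Gm4076, 95.2% identical) had 2.67 to 3.36. In all, 11 copies were found, of which 7 passed the expression limit given below. Of these 7, 0 passed in limma (0 with an unadjusted p under 0.05, smallest adjusted p = 0.303), against 13.7% of all genes tested. A count of 0 is near that share for so few genes. How reads that match more than 1 place were counted is not given in the sources used here, and the part of read assignment in the low values was not tested. The values of mt-Co2, mt-Atp8, mt-Atp6, mt-Co3, mt-Nd3 and mt-Nd4l are therefore uncertain as levels of these transcripts.

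For the comparison of the genotypes, 16 of the 37 genes had a mean rlog of at least log2(10) over the 10 mice and entered the limma fit, which covered 14289 genes in all. They were 8 of the 13 protein-coding, both rRNA and 6 of the 22 tRNA genes. The only gene that passed an adjusted p of 0.05 was mt-Tt, the tRNA for threonine, which was lower in knock-out muscle. At an unadjusted p under 0.05 there were 3 genes, mt-Rnr2, mt-Tt and mt-Tp. Of all 14289 genes tested, 13.7% passed, 7.7% higher and 5.99% lower in knock-out, and 1 of 16 mitochondrial genes is near that share for so few genes. For none of the 16 were all knock-out mice below or above all wild-type mice, against 14.4% of all genes tested. In bulk muscle, fewer cells or mitochondria and less RNA in each cannot be told apart.

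The means of 14 of the 16 genes were lower in knock-out mice, as were 50.5% of all genes tested. Their median log2 difference was -0.20 against 0.00 over all genes tested. The count depended on the scaling. After quantile normalization it was 8 of 16, with 53.3% of all genes tested lower and a median of -0.02 for both. When mice were scaled to equal sums of the nuclear signal it was also 8 of 16. All tested genes then shifted too, with 20.9% lower and a median of 0.20, against -0.005 for the 16 genes. Without wild-type mouse 3, the mean was lower for 11 of 16 genes and the median log2 difference was -0.11. That mouse lay above the mean of the other wild-type mice by 1.04 for mt-Co1, 0.98 for mt-Nd4 and 0.83 for mt-Nd1 on the log2 scale, but by only 0.21 for mt-Nd2, and it lay 0.17 below them for mt-Cytb. Wild-type mouse 4 lay 0.71 below the other wild-type mice for mt-Co1 and 0.63 below for mt-Nd5. Knock-out mice were more alike. Their SD was smaller than that of wild-type mice for 15 of the 16 genes and for 11 of 16 without wild-type mouse 3, where over all genes tested the same held for 82.9% and 68.4%.

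**Figure D3:**
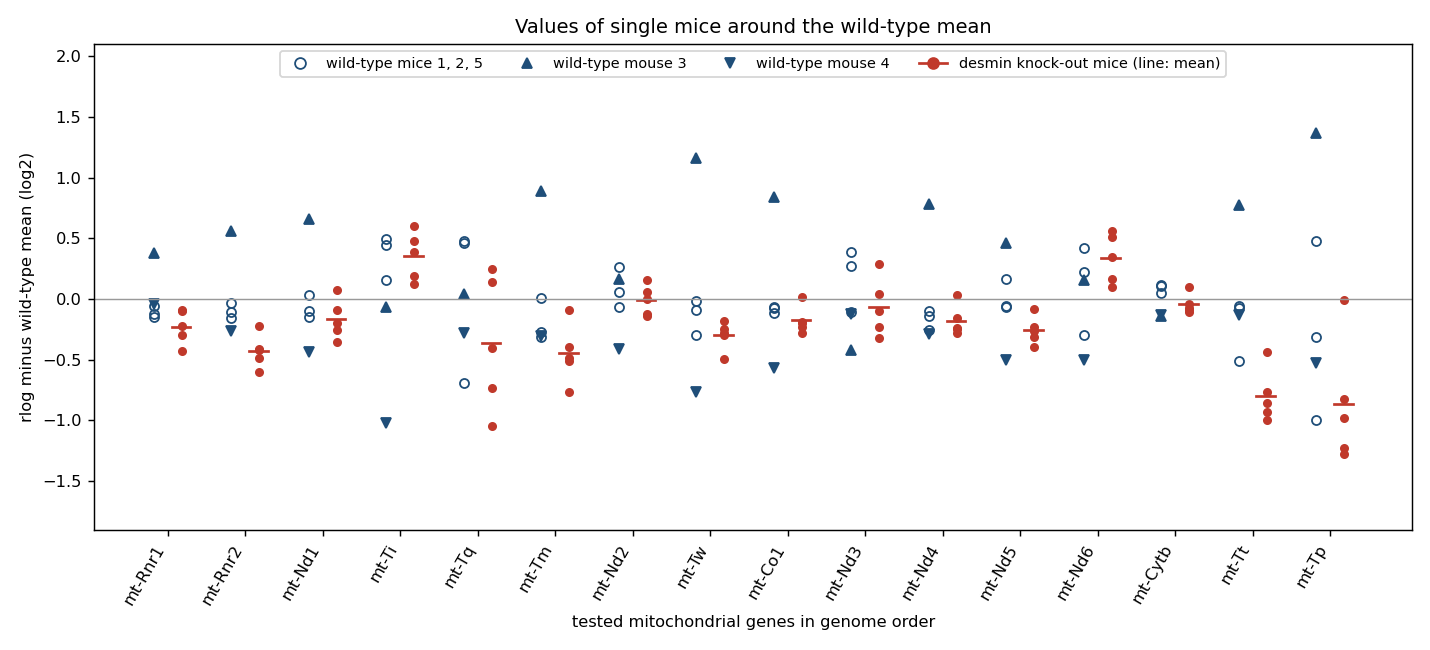
rlog of the 16 tested mitochondrial genes in each mouse, minus the wild-type mean of the gene (log2 scale); red points and lines are desmin knock-out mice and their mean, blue symbols wild-type mice. Wild-type mouse 3 is the highest wild-type mouse for mt-Rnr1, mt-Rnr2, mt-Nd1, mt-Tm, mt-Tw, mt-Co1, mt-Nd4, mt-Nd5, mt-Tt and mt-Tp, and knock-out and wild-type mice overlap for every gene.

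None of the 13 protein-coding genes passed the test in limma, and 0 of the 8 tested had an unadjusted p under 0.05. The complex IV subunit mt-Co1 had rlog values of 20.84, 20.93, 20.89, 20.93 and 21.14 in knock-out and of 21.05, 21.01, 21.96, 20.56 and 21.06 in wild-type mice. The 5 knock-out values lay inside the wild-type range, and the log2 difference was -0.18 with a 95% interval of -0.76 to 0.40 (adjusted p = 0.707). Without wild-type mouse 3 it was 0.03. For mt-Cytb of complex III the values were 20.14, 20.18, 20.11, 20.13 and 20.31 in knock-out and 20.33, 20.27, 20.08, 20.09 and 20.32 in wild-type mice, the narrowest spread of the high genes. Its log2 difference of -0.04 had an interval of -0.44 to 0.35 (adjusted p = 0.897).

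The complex I subunits of the heavy strand also overlapped between the genotypes. Knock-out and wild-type means were 19.96 ± 0.16 and 20.12 ± 0.41 for mt-Nd1, 19.19 ± 0.12 and 19.20 ± 0.26 for mt-Nd2, 19.17 ± 0.13 and 19.34 ± 0.45 for mt-Nd4, and 18.84 ± 0.11 and 19.10 ± 0.35 for mt-Nd5 (SD, n = 5 each). The log2 differences ran from -0.26 for mt-Nd5 to -0.01 for mt-Nd2, with adjusted p from 0.413 to 0.978. Without wild-type mouse 3 they were 0.00 for mt-Nd1, 0.03 for mt-Nd2, 0.02 for mt-Nd4 and -0.14 for mt-Nd5. The intervals of all 10 mice reached from -0.68 at the lowest to 0.38 at the highest, which leaves changes of this size undetected at this number of mice. In the low stretch only mt-Nd3 passed the limit, with 3.51 ± 0.24 in knock-out and 3.57 ± 0.33 in wild-type mice (log2 difference -0.07, adjusted p = 0.835).

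The only light strand mRNA, mt-Nd6, was the only one of the 8 tested protein-coding genes with a higher mean in knock-out mice. It had rlog values of 13.23, 12.99, 13.40, 13.05 and 13.44 in knock-out mice and of 13.31, 13.11, 13.04, 12.38 and 12.59 in wild-type mice. The knock-out mice 3 and 5 lay above all wild-type mice, and wild-type mice 4 and 5 below all knock-out mice. The log2 difference of 0.34 (SE 0.17, interval -0.03 to 0.70) did not pass, with an adjusted p of 0.216 and an exact two-sided permutation p of 0.135 (n = 5 each). Because its end overlaps that of mt-Nd5 on the other strand, and the strand setting of the counting is not given in the sources used here, reads in the overlap cannot be assigned with certainty.

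The 5 protein-coding genes under the limit had low values in all mice. They were mt-Co2 with 1.01 to 1.34, mt-Atp6 with 1.6 to 2.33, the highest in knock-out mouse 5, mt-Co3 with 1.24 to 1.45, mt-Atp8 with 0.10 to 0.41 and mt-Nd4l with -0.76 to -0.68. In a fit without the limit, their log2 differences lay between 0.00 and 0.11, and no adjusted p was under 0.699. At such levels the rlog transformation leaves little of any difference, so a difference was not detectable here.

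Both rRNA genes were lower in the mean of the knock-out mice, and neither passed in limma, although mt-Rnr2 had an unadjusted p of 0.0201. Its rlog values were 16.55, 16.74, 16.93, 16.67 and 16.73 in knock-out and 17.04, 17.12, 17.72, 16.89 and 17.00 in wild-type mice. In 4 of 5 knock-out mice mt-Rnr2 was below every wild-type mouse, and knock-out mouse 3 lay just above wild-type mouse 4. The log2 difference was -0.43 (SE 0.16, interval -0.78 to -0.08, adjusted p = 0.102), with an exact two-sided permutation p of 0.0159 (n = 5 each). Without wild-type mouse 3 it was -0.29 (adjusted p = 0.0657). The small-subunit gene mt-Rnr1 had 16.23, 16.56, 16.56, 16.36 and 16.43 in knock-out and 16.53, 16.60, 17.03, 16.62 and 16.51 in wild-type mice, and the groups overlapped in part. Its log2 difference was -0.23 (adjusted p = 0.300) and -0.13 without wild-type mouse 3. The difference of mt-Rnr2 minus mt-Rnr1 within a mouse was 0.30 ± 0.07 in knock-out and 0.50 ± 0.15 in wild-type mice (SD, n = 5 each), and it does not depend on the scaling of a mouse. The groups overlapped, with 0.18 to 0.37 in knock-out and 0.27 to 0.68 in wild-type mice. Knock-out minus wild-type, the mean differed by -0.20, and by -0.15 without wild-type mouse 3.

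Of the 22 tRNA genes, 8 were listed at 0 in all 10 mice, 8 had values under the limit, and 6 were tested. Those at 0 were mt-Tf, mt-Ts1, mt-Tk, mt-Tg, mt-Tr, mt-Th, mt-Ts2 and mt-Tl2. They were 4 of the 5 tRNA genes inside the stretch that is repeated on chromosome 1 and 4 of the 17 outside it. The 8 under the limit were mt-Tv, mt-Tl1, mt-Ta, mt-Tn, mt-Tc, mt-Td, mt-Ty and mt-Te, and in a limma fit without the limit none passed (adjusted p from 0.612 to 0.961). At such levels the rlog transformation leaves little of any difference, so a difference was not detectable here. The 22 tRNA genes are only 59 to 75 bases long, and reads over them can also stem from precursors that reach into the neighbouring gene. The sequences of the 6 tested tRNA genes are printed because the only call among the mitochondrial genes is one of them. They are GENCODE M21 transcripts on GRCm38, 5′ to 3′, and capitals mark the anticodon.
mt-Ti, isoleucine, M:3706-3774, plus strand: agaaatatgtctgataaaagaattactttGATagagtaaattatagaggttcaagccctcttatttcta
mt-Tq, glutamine, M:3772-3842, minus strand: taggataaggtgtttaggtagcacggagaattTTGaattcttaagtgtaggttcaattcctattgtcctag
mt-Tm, methionine, M:3845-3913, plus strand: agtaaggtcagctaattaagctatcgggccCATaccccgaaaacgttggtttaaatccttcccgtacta
mt-Tw, tryptophan, M:4950-5016, plus strand: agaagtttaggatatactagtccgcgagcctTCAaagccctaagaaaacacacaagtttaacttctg
mt-Tt, threonine, M:15289-15355, plus strand: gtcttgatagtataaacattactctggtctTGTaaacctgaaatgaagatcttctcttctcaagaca
mt-Tp, proline, M:15356-15422, minus strand: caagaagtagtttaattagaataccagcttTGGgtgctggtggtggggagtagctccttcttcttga

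The gene that passed, mt-Tt, follows directly on mt-Cytb on the same strand. Its rlog values were 4.55, 4.62, 5.04, 4.71 and 4.48 in knock-out and 5.41, 5.42, 6.25, 5.35 and 4.97 in wild-type mice. In 4 of 5 knock-out mice mt-Tt lay below every wild-type mouse, and knock-out mouse 3 was above wild-type mouse 5. The log2 difference was -0.80 (SE 0.20, interval -1.23 to -0.36, adjusted p = 0.0178), and the exact two-sided permutation p was 0.0159 (n = 5 each). Without wild-type mouse 3, the highest of all, the difference was -0.60 (adjusted p = 0.0109), again the only call among the mitochondrial genes where 17.5% of all genes passed. The call was lost when all genes with any value were tested (adjusted p = 0.0588, with 5.55% of all genes passing) and without knock-out mouse 5 (adjusted p = 0.0514). The level of mt-Tt was 8.98 per kb on the log2 scale, far under the 20.00 of the mt-Cytb gene beside it.

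Its neighbour mt-Tp lies next to it on the opposite strand and had a difference of similar size that did not pass. The rlog values of mt-Tp were 4.96, 4.55, 5.77, 4.51 and 4.80 in knock-out and 5.47, 6.26, 7.14, 5.25 and 4.79 in wild-type mice, and the groups overlapped widely. The log2 difference was -0.86 (SE 0.38, adjusted p = 0.156), with an exact two-sided permutation p of 0.127 (n = 5 each), and -0.52 without wild-type mouse 3. Whether mt-Tt and mt-Tp differed from the other tested members was not tested.

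The other 4 tested tRNA genes surround mt-Nd2. For mt-Tm the values were 6.16, 6.41, 6.83, 6.44 and 6.53 in knock-out and 6.61, 6.65, 7.81, 6.62 and 6.93 in wild-type mice, so that only knock-out mouse 3 reached into the wild-type range. Its log2 difference of -0.45 (adjusted p = 0.195) was -0.23 without wild-type mouse 3. On the strand of mt-Nd1, mt-Ti had 8.70 ± 0.20 in knock-out and 8.35 ± 0.62 in wild-type mice, with a log2 difference of 0.35 (adjusted p = 0.360). It shares bases with the end of mt-Nd1 and, on the other strand, with mt-Tq. The values of mt-Tq were 4.69 ± 0.56 and 5.05 ± 0.50 (log2 difference -0.36, adjusted p = 0.424), and those of mt-Tw 8.24 ± 0.12 and 8.54 ± 0.71 (log2 difference -0.30, adjusted p = 0.490; SD, n = 5 each). Without wild-type mouse 3 the difference of mt-Tw was -0.01.

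**Figure D4:**
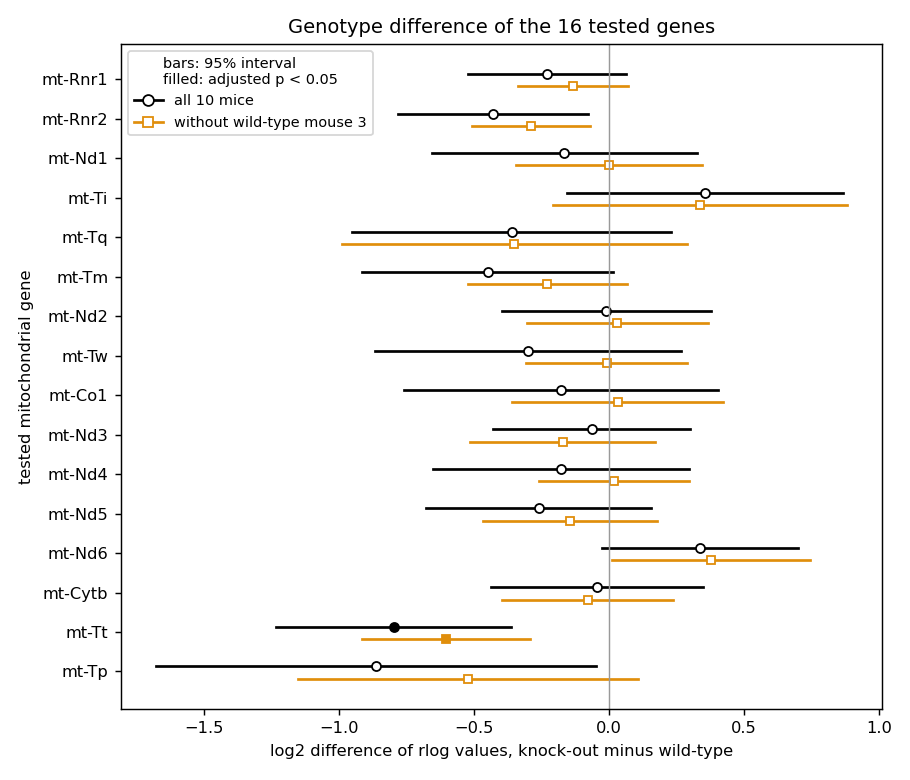
Log2 difference of rlog, knock-out minus wild-type, of the 16 tested mitochondrial genes, with 95% intervals from limma, for all 10 mice (circles) and without wild-type mouse 3 (squares); filled symbols have an adjusted p under 0.05. Only mt-Tt is filled, at -0.80 and at -0.60 without that mouse, and the differences of mt-Nd1, mt-Co1, mt-Nd4 and mt-Tw lie between -0.01 and 0.03 without it.

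As a whole, the mitochondrial transcripts made up a similar part of the signal in both genotypes. Their share of the summed linear values was 15.0%, 15.5%, 15.1%, 15.4% and 17.6% in knock-out mice and 16.4%, 15.1%, 16.9%, 12.2% and 16.4% in wild-type mice. The mean shares of 15.7% ± 1.06 and 15.4% ± 1.89 (SD, n = 5 each) differed by less than the spread between mice. Nearly all of it came from the protein-coding genes, with 15.2% ± 1.06 and 14.8% ± 1.87. The rRNA genes held 0.507% ± 0.0379 in knock-out and 0.562% ± 0.0250 in wild-type mice, and the range of 0.459% to 0.563% in knock-out overlapped that of 0.529% to 0.594% in wild-type mice. The 6 low protein-coding genes added almost nothing to these shares, and whether reads of their stretch are missing from the table was not tested.

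Ratios within a mouse are free of its scaling where both genes have high values, which rlog shrinks little. The light strand mRNA mt-Nd6 lay 6.37, 6.75, 6.28, 6.59 and 6.46 below the mean of the 6 heavy strand mRNAs with high values in knock-out mice, on the log2 scale, and 6.61, 6.66, 7.27, 7.08 and 7.21 below it in wild-type mice. The mean distance was smaller in knock-out mice by 0.48, and knock-out mouse 2 lay below the wild-type mice 1 and 2, so the groups overlapped. Over all 12 heavy strand mRNAs, which include the low stretch, the balance of mt-Nd6 was higher in knock-out mice by 0.39. The low genes are strongly shrunken, so the scaling of a mouse need not cancel in this value. The mean of both rRNAs against the same 6 mRNAs was -3.14 ± 0.14 in knock-out and -2.95 ± 0.16 in wild-type mice (SD, n = 5 each), a difference of -0.19 with overlapping groups. The distance of mt-Co1 from mt-Cytb ran from 0.70 to 0.83 in knock-out and from 0.47 to 0.74 in wild-type mice, except for wild-type mouse 3 with 1.88.

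Nuclear genes of the same system were tested in 11 lists of 177 genes, and 3 passed, where 13.7% of all genes tested did. Replication and maintenance of mitochondrial DNA (16 genes), RNA processing and stability (22 genes), modification of rRNA and tRNA (17 genes) and aminoacyl-tRNA synthetases (22 genes) had 0 calls in limma, with 1, 1, 1 and 5 genes at an unadjusted p under 0.05. Of the 10 genes of mitochondrial transcription, Mterf1a, a factor that binds the end of the rRNA genes, rose, with rlog values of 4.92 to 5.14 in knock-out and 4.08 to 4.90 in wild-type mice. Its log2 difference of 0.46 (SE 0.14, adjusted p = 0.0460) was 0.35 without wild-type mouse 3 (adjusted p = 0.0580), and the call held in only 1 of the 10 fits that left out 1 mouse, that without wild-type mouse 5 (adjusted p of at most 0.115 in the others). With all 10 mice it was also lost when all genes with any value were tested (adjusted p = 0.1000), after quantile normalization (0.0600) and with equal nuclear sums (0.0618). Its paralog Mterf1b, whose reads may be hard to separate from its own, had a log2 difference of 0.31 (adjusted p = 0.264). Of the 12 translation factors, Taco1, which activates translation of the mt-Co1 mRNA, fell from 10.50 to 10.99 in wild-type to 10.21 to 10.38 in knock-out mice (log2 difference -0.39, SE 0.10, adjusted p = 0.0212). The call of Taco1 was lost when mice were scaled to equal sums of the nuclear signal (-0.19, adjusted p = 0.382) and without knock-out mouse 2 or 3 (adjusted p of at most 0.0576).

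In the synthetase list the median log2 difference was -0.12, against 0.00 over all genes tested, and 19 of 22 means were lower in knock-out mice, as were 50.5% of all genes tested. When mice were scaled to equal sums of the nuclear signal, this turned to 7 of 22 lower and a median of 0.08, against 0.20 over all genes tested. The partner enzymes of the tested tRNAs did not pass. Tars2, which charges mt-Tt with threonine, had a log2 difference of 0.00 (adjusted p = 0.988), and Pars2, which charges mt-Tp, one of -0.22 (adjusted p = 0.228). Values for Iars2, Mars2 and Wars2, the enzymes for isoleucine, methionine and tryptophan, were -0.04, 0.21 and -0.30 (adjusted p from 0.0627 to 0.825). Glutamine is attached to mt-Tq through a transamidation complex, whose subunits Qrsl1, Gatb and Gatc had -0.17, -0.12 and -0.23 (adjusted p from 0.0807 to 0.385).

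The nuclear subunits that join the mitochondrial ones in the respiratory complexes were tested with 78 genes, of which 1 passed. Of the 36 nuclear complex I subunits, Ndufb3 of the membrane arm rose from 12.41 to 12.59 in wild-type to 12.65 to 12.85 in knock-out mice (log2 difference 0.30, SE 0.08, adjusted p = 0.0257), without overlap. The call was lost after median centring (0.25, adjusted p = 0.0878) and without knock-out mouse 2, 3, 4 or 5 or wild-type mouse 1 or 2 (adjusted p of at most 0.0817). Complex II, which has no mitochondrially encoded subunit, had 0 calls among 4 genes, complex III 0 among 9, complex IV 0 among 13 and the ATP synthase 0 among 16, with 0, 0, 1 and 1 genes at an unadjusted p under 0.05. The medians ran from -0.11 for complex I to 0.00 for complex IV, and without wild-type mouse 3 from -0.01 for complex I to 0.09 for complex IV.

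**Figure D5:**
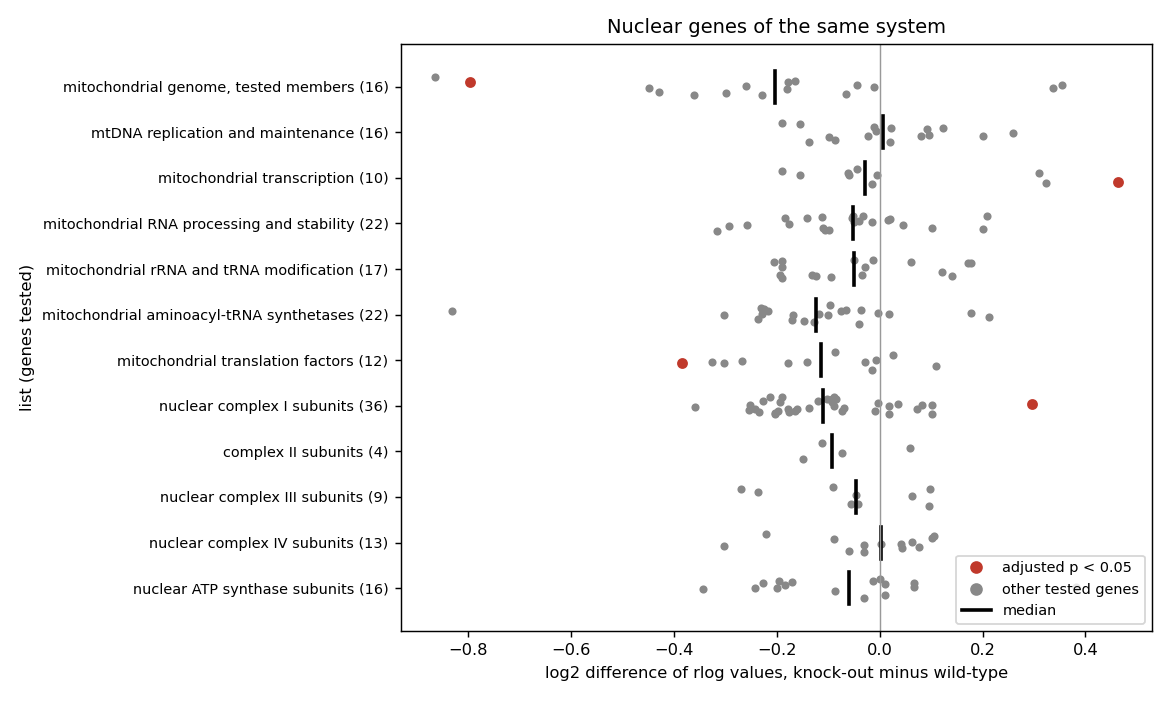
Log2 difference of rlog, knock-out minus wild-type, for the tested mitochondrial genes (top) and for each gene of 11 lists of nuclear genes; bars are list medians and red points genes with an adjusted p under 0.05. The 4 red points are mt-Tt, Mterf1a, Taco1 and Ndufb3, and the medians of the nuclear lists lie between -0.12 and 0.01.

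Some markers of fiber types and of other cell types differed between the genotypes, while the amounts of these cells and fibers were not measured. Of all genes tested 13.7% passed, and among the skeletal muscle fiber markers 2 of 8 did, Myh4 and Actn3, which were lower in knock-out mice (log2 differences -0.71 and -0.97). The means of 6 of the 8 were lower and 2 were higher, Myh1 (0.58, limma adjusted p = 0.132) and Mb (0.32, adjusted p = 0.150). Without wild-type mouse 3, where 17.5% of all genes passed, Myh1 and Mb passed as higher and Myh4 and Actn3 as lower. The log2 sums of this list, given above, did not overlap between the genotypes, but only narrowly (at most 22.225 in knock-out and at least 22.245 in wild-type mice). Among the other markers tested, 4 of 6 fibroblast genes and 3 of 8 genes of slow and oxidative fibers rose, 1 of the slow genes fell, and 3 of 5 endothelial and 2 of 5 erythroid genes fell. Log2 sums over the lists were 17.18 to 17.78 in knock-out and 16.49 to 17.39 in wild-type mice for slow and oxidative fibers, and 13.82 to 14.42 and 13.36 to 14.29 for fibroblasts. The sum for slow and oxidative fibers rests mostly on Myh2, with means of 17.23 in knock-out and 16.46 in wild-type mice. For endothelium the sums were 11.42 to 11.90 and 11.90 to 12.23, and for erythroid cells, whose mature forms lack mitochondria, 11.49 to 12.09 and 12.00 to 13.37. Macrophage (6 genes) and adipocyte markers (5 genes tested, 1 listed at 0) had 0 calls and 0 genes at an unadjusted p under 0.05 in limma. Of 6 cardiomyocyte markers listed, Mybpc3 was at 0 in all mice and Nppa was under the limit. Of the 4 tested, 2 rose and 1 fell. Without wild-type mouse 3, 3 of 6 fibroblast and 4 of 8 slow genes rose, and 1 slow gene fell. In that fit 2 of 5 endothelial and 3 of 5 erythroid genes fell, and of the cardiomyocyte markers 2 rose and 0 fell. The part of these shifts in the mitochondrial values was not tested.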

How the data were processed

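RNA of 10 gastrocnemius samples, 5 per genotype, had been made into stranded mRNA libraries. The authors deposited 1 table of regularized log2 values (rlog from DESeq2) for 54232 genes, with 26079 rows at 0 in all mice. The submitters' processing notes name cutadapt 2.5, STAR 2.5.4a, Subread 1.6.1 with featureCounts, DESeq2 and the build GRCm38. Settings for strand and for reads with several matches, and read totals, are not given in the sources used here, so no interval for counting error was computed.

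Columns were assigned to mice by their labels. All genes with a mean rlog of at least log2(10) (14289) were fitted with limma 3.58.1 in R 4.3.3 (two-sided, moderated variance with trend, Benjamini-Hochberg adjustment over all tested genes). This test was used in place of a count model because the deposited values are on a log2 scale. Single genes also got an exact permutation test of the difference of means, and shares were formed from 2 to the power of rlog. On simulated data for the 14289 genes of this comparison, 88% of genes changed by 1 and 96% of those changed by 1.5 on the log2 scale were recovered, and 4.17% of calls were false. The simulation changed 200 genes and used independent normal noise with the same SD in both genotypes. It held neither the larger wild-type spread nor an outlying mouse, and no change smaller than 1. These rates therefore need not hold for the real data or for the smaller differences of the mitochondrial genes. Nothing in the labels says more about the origin of replicates than 1 mouse each, and p-values measure only the spread between these samples. No pair of mice was a duplicate, as the closest pair differed with an SD of 0.148 over tested genes.

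Gene positions, lengths and sequences came from GENCODE M21 (GRCm38), which held 54165 of the symbols. Mitochondrial genes were searched in nuclear transcripts with BLAST 2.17.0 (at least 95% identity over 300 bases, shorter Gm10222 shown beside them) and by exact windows of 50 and 100 bases. All 37 genes are accounted for: the protein-coding and rRNA genes and the tested tRNA genes are named with values, and up to 3 genes under an adjusted p of 0.05 per list. The members, lists and tests were chosen with earlier results of these data known. Alternatives covered the limit on low values, scaling, variance model, sample weights, replicate block, GC and length trends, a stricter threshold and leaving out each mouse. Protein sequences were not used here.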

Additional observations from a re-analysis of the deposited data

Results flagged for a closer look

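In groups of 5 mice, a single mouse was set apart from the others of its genotype in 6 of 48 groups examined over the 16 tested genes and the shares and ratios, by a gap of more than 0.71 of the range. Chance flags about 1 in 20 groups, or 2.4 of 48. The groups are not independent, because they hold the same mice and some shares and ratios contain the same genes. A single deviating mouse can therefore be flagged several times, and the number by chance is only a rough guide. Wild-type mouse 3 was the mouse in 4 of the 6. Its rlog of mt-Rnr1 was 17.03, where the other wild-type mice had 16.51 to 16.62. For mt-Rnr2 it had 17.72 against 16.89 to 17.12, for mt-Nd4 20.13 against 19.06 to 19.25, and for the tRNA gene mt-Tm 7.81 against 6.61 to 6.93. The summed linear signal of this mouse was 1.48 times the median of all mice, and its nuclear part alone 1.46 times, so a higher value was not limited to mitochondrial genes.

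The other 2 were shares of knock-out mouse 5. All 37 mitochondrial genes made up 17.6% of its summed linear signal, where the other knock-out mice had 15.0% to 15.5%, and the 13 protein-coding genes made up 17.1% against 14.5% to 15.0%.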

How the results depend on the processing

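Of the mitochondrial protein-coding genes, 0 were called in limma in all 20 alternatives. The rRNA genes had 1 call with sample weights (mt-Rnr2, adjusted p = 0.00533) and 0 in the other alternatives. For the tRNA genes the 1 call, mt-Tt, became 0 when all nonzero genes were tested, 0 with a limit of log2(50), which mt-Tt does not reach, 0 at an adjusted p of 0.01, 3 with sample weights (with mt-Tp and mt-Tq), and 0 to 1 when 1 mouse was left out. Over all genes, 4220 were called with sample weights, 994 at an adjusted p of 0.01 and 1400 to 2496 with 1 mouse left out, against 1956. For the 11 nuclear lists, 3 calls became 29 with sample weights, 6 without GC and length trends, 0 at an adjusted p of 0.01 and 0 to 4 with 1 mouse left out. Of 1956 calls, 56.2% were higher in knock-out, which was 49% after median centring, 51.2% after quantile normalization and 85.8% with equal nuclear sums, where the median of all tested genes was 0.20.

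Same-numbered mice did not deviate together (correlations from -0.219 to 0.0673, and no knock-out mouse correlated best with its own number). The numbers thus gave no sign of a pairing, but a weak pairing may not show in correlations over all tested genes. With the replicate number as a block, 1579 genes were called, 0 of the nuclear lists and 2 tRNA genes, mt-Tt and mt-Tp.

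Uncalled genes changed the sign of their log2 difference as follows. With quantile normalization it was 0.226 for mt-Nd1, 0.234 for mt-Nd2, 0.132 for mt-Co1, 0.111 for mt-Nd4, 0.0215 for mt-Nd5 and 0.382 for mt-Cytb. With equal nuclear sums it was 0.0338 for mt-Nd1, 0.189 for mt-Nd2, 0.0216 for mt-Co1, 0.134 for mt-Nd3, 0.0195 for mt-Nd4 and 0.154 for mt-Cytb. With sample weights it was -0.0237 for mt-Ti and 0.0107 for mt-Nd4. With 1 mouse left out it ran from -0.114 to 0.0550 for mt-Nd2, from -0.320 to 0.0313 for mt-Co1, from -0.171 to 0.0325 for mt-Nd3 and from -0.252 to 0.0166 for mt-Nd4, and it was above 0 without wild-type mouse 3 for mt-Nd2, mt-Co1 and mt-Nd4.

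The difference of the mitochondrial share, 0.305 percentage points, ran from -0.490 to 0.677 with 1 mouse left out and was 1.73 after quantile normalization. The choice of 6 heavy strand mRNAs with high values was added after seeing the data. Except where a fit held fewer genes or fewer mice, the cause of these changes was not tested. Depth per mouse is unknown, and low values are shrunken.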
